A study of Mus musculus and Rattus norvegicus with 79 samples.

Results

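Livers of mice that stayed unfed into the night were compared at 2 hours, Zeitgeber time (ZT) 18 and ZT14, where ZT0 is lights on and light and dark last 12 h each. The comparison rests on 6 of the 79 samples of the study, chosen by their labels: the 3 libraries of unfed livers at ZT18 and the 3 of unfed livers at ZT14. All 6 came from C57BL/6 mice with no virus injection, kept on night-restricted feeding beforehand. Fed C57BL/6 livers at ZT18 and ZT14, again 3 libraries each, were sampled at the same hours and serve to set the unfed change against the change of a night with food. A separate experiment with Nr3c1fl/fl mice, in which a virus carried CRE or GFP behind the hepatocyte promoter tbg, is used for genes that respond to loss of the glucocorticoid receptor, with food withheld at the first 2 of its 6 times (ZT10 and ZT12) and given from ZT13 to ZT22. The labels give neither age, sex nor length of the fast, and do not say whether replicates were separate animals. The p-values therefore measure a spread between samples. For the C57BL/6 livers that spread was estimated over all 27 libraries in 9 groups, fed livers and other times included, and not from the 6 libraries alone. ZT18 livers were taken 4 h later in the day and after a longer time without food than ZT14 livers, and within the unfed livers these cannot be told apart.

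In a fasting liver, glycogen is broken down first, glucose is then made from amino acids and glycerol, and fatty acids are oxidised to ketone bodies. Synthesis of fatty acids and cholesterol depends on the SREBP transcription factors and is known to be low in the fasted liver and high after a meal. The liver also holds a circadian clock: BMAL1 (encoded by Arntl) and CLOCK bind E-boxes and switch on the Per, Cry, Nr1d1 and Dbp genes, the PER and CRY proteins inhibit BMAL1 and CLOCK in turn, and the REV-ERB receptors, of which Nr1d1 encodes one, repress Arntl.

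Promoter stretches of 3 clock genes that changed are shown first, because they carry the letters of the binding sites named above, with the matches in capitals. They are bases before the start site from RefSeq on GRCm38.p6, read on the gene's strand, and a match describes the letters only. Ciart, which encodes a repressor of BMAL1 and CLOCK, holds 3 E-boxes (CACGTG) in the stretch at chr3:95882229-95882394, minus strand. Cry1, a core repressor of the clock, holds 1 E-box in the stretch at chr10:85185059-85185164, minus strand. Per3, a period gene, holds 2 D-boxes (TTATGTAA, the site of DBP and its relatives) in the stretch at chr4:151044766-151044915, minus strand.
Ciart: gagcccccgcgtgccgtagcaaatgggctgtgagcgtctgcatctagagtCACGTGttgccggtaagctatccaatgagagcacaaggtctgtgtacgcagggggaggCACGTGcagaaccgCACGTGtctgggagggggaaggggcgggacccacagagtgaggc
Cry1: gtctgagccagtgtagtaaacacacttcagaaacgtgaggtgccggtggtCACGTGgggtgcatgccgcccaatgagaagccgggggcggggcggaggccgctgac
Per3: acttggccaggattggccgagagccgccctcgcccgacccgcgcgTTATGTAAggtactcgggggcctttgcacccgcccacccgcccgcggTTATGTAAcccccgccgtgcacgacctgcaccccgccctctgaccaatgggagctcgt
Searched on both strands over 250 bases before to 50 bases after the start site, the E-box was present in 5 of 17 clock genes with a promoter in the table (29.4%) and in 11.2% of the 11660 tested genes with one. The D-box (TTATGTAA or TTACGTAA) was present in 1 of those 17, which is Per3, and in 0.986% of the 11660 genes.

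The 6 libraries held 27.08 to 59.46 M counts, against 23.87 to 91.77 M over the 27 C57BL/6 libraries, and levels are given as CPM, counts scaled to a common total over the tested genes. All 8 hepatocyte markers in the table were tested and none changed, with a summed level of 87006 to 105306 CPM at ZT18 and 94013 to 98795 CPM at ZT14. Replicate 3 of the ZT18 livers stood apart by transcripts of pancreas acinar cells: its 20 markers summed to 613 CPM with none at 0, against 15.4 and 16.3 CPM in the other ZT18 livers and 15.6 to 17.8 CPM in the ZT14 livers. In those 5 libraries 11 to 17 of the 20 markers were at 0. Of the 4 acinar markers that passed the filter on low counts, 3 (Cela2a, Ctrl and Ctrb1) were past the threshold with this library and 0 without it. The main counts below are therefore also given without that library. Ctrb1, the chymotrypsinogen gene, is the clearest case, with 3050 counts in replicate 3, 0 and 1 counts in the other ZT18 livers and 0 counts in each ZT14 liver. In bulk liver, fewer cells of a type and less RNA per cell cannot be told apart.

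Of 14744 genes tested, 1023 (6.94%) changed between unfed ZT18 and unfed ZT14 livers at an adjusted p under 0.05, 590 of them higher (4.00%) and 433 lower (2.94%) at ZT18. The larger number of rises depended on the fit: it was 670 higher and 726 lower with these groups alone, 501 and 508 with halved counts, 673 and 654 with DESeq2, and 526 and 476 with its size factors. Adjusted p-values here and below are from edgeR's quasi-likelihood test with Benjamini-Hochberg adjustment over all genes tested, and log2 fold changes are ZT18 over ZT14, with their standard error (SE). Most changes were moderate: the median size was 0.61 on the log2 scale among genes that rose and 0.50 among genes that fell, and 123 and 42 genes passed 1 on that scale. The median over all genes tested was 0.02. The libraries of the groups did not overlap for 575 of the 590 genes that rose and 430 of the 433 that fell, beside 30.1% of all genes tested. Without ZT18 replicate 3, 569 of 15005 genes changed (3.79%), 331 higher (2.21%) and 238 lower (1.59%), and 311 of the genes that rose and 213 of those that fell kept their call. The count was 845, 404 and 569 without ZT18 replicate 1, 2 and 3 and 483, 572 and 470 without ZT14 replicate 1, 2 and 3. In all, 266 genes (162 higher and 104 lower) were past the threshold in each of these 6 fits as well.

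**Figure D1:**
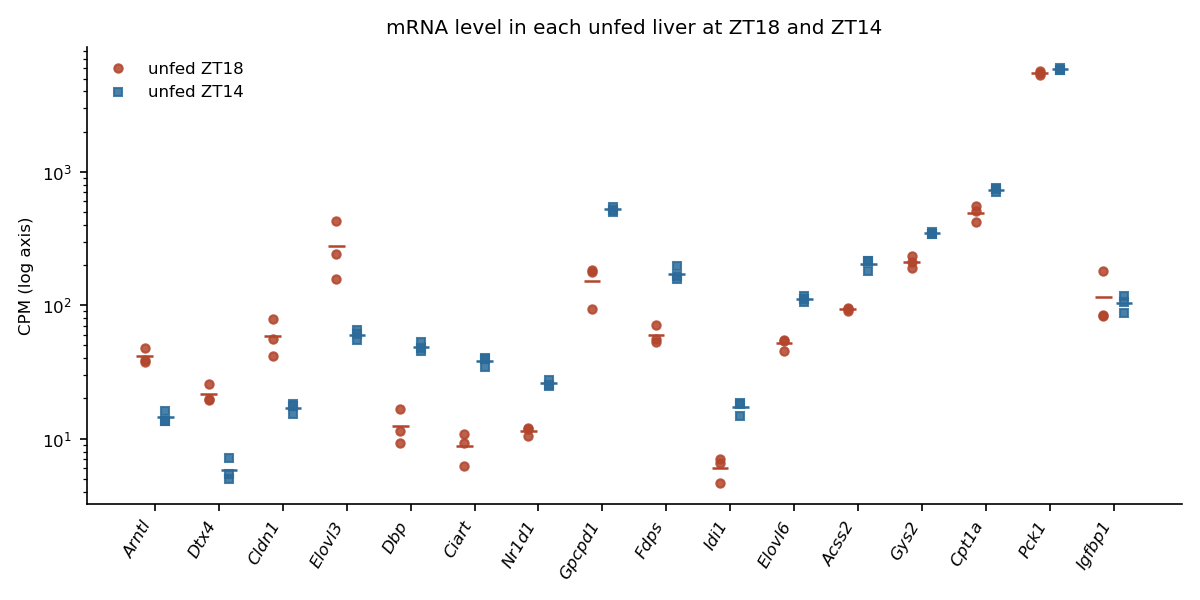
Level of 16 named genes in each unfed liver (CPM, log axis); circles are the 3 ZT18 livers, squares the 3 ZT14 livers and lines the group means. The groups stand apart without overlap for every gene shown except Igfbp1, and Pck1 did not pass the test.

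Clock genes gave some of the steepest changes. Arntl, which encodes BMAL1, had 47.6, 37.2 and 39.1 CPM in unfed livers at ZT18, against 13.6, 16.1 and 13.5 CPM at ZT14. Every ZT18 liver was above every ZT14 liver, and the log2 fold change was 1.52 ± 0.17 (SE; adjusted p = 6.29e-06). Known targets of BMAL1 moved the other way. Dbp, a transcription factor that binds D-boxes, had 9.32, 11.3 and 16.6 CPM at ZT18 and 52.9, 45.5 and 48.1 CPM at ZT14, a log2 change of -1.97 ± 0.23 (adjusted p = 6.33e-06). Ciart had 10.8, 6.22 and 9.34 CPM at ZT18 and 39.2, 40.1 and 34.4 CPM at ZT14, a log2 change of -2.11 ± 0.22 (adjusted p = 2.88e-06). For both genes the groups lay far apart. Nr1d1, which encodes the repressor REV-ERB alpha, had 11.7, 10.4 and 12 CPM at ZT18 and 24.9, 25.2 and 27.7 CPM at ZT14, a log2 change of -1.19 ± 0.22 (adjusted p = 0.00174). All 4 genes were past the threshold in each fit without 1 library. The gene intervals of Dbp and Sphk2, Nr1d1 and Thra, and Ciart and a predicted gene overlap, and the labels do not say if strand was used in counting, so their reads cannot be told apart with certainty.

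Of the 22 genes on the list of clock and clock output genes, 4 rose and 5 fell, beside 4.00% and 2.94% of all genes tested, with a median log2 change of -0.20, beside 0.02 over all genes tested. Besides Arntl, the genes that rose included Cry1 (0.76 ± 0.17) and Clock (0.52 ± 0.13), which encodes the partner of BMAL1. Cry1 had 77.6, 66.2 and 67.5 CPM at ZT18 and 40.5, 44.5 and 39.4 CPM at ZT14. The remaining genes that fell were Usp2 (-1.11 ± 0.24), a deubiquitinase gene with strong daily rhythm, and Per3 (-0.65 ± 0.16). Per3 had 36.3, 42.5 and 36 CPM at ZT18 and 63.5, 61.8 and 55.8 CPM at ZT14, and its adjusted p of 0.0132 became 0.0543 without ZT18 replicate 3. Cry1, Clock, Usp2 and Per3 were named after their values were seen. Per1 and Per2, the period genes that inhibit BMAL1 and CLOCK, did not pass, with log2 changes of -0.13 ± 0.33 (adjusted p = 0.87) and -0.32 ± 0.15 (adjusted p = 0.228). Per2 nonetheless had 70.1, 75.8 and 70.8 CPM at ZT18 and 86.3, 96.5 and 87.3 CPM at ZT14, with no overlap.

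The clock genes also moved with food, and for no member of the list did the difference between the unfed and the fed change pass the threshold, though it did for 2 without fed ZT18 replicate 3 and for 1 without fed ZT14 replicate 1. In fed livers the log2 change from ZT14 to ZT18 was 1.94 ± 0.18 for Arntl, -2.19 ± 0.23 for Dbp, -2.78 ± 0.23 for Ciart and -1.38 ± 0.24 for Nr1d1. The differences, unfed minus fed, were -0.42 ± 0.24, 0.22 ± 0.32, 0.67 ± 0.32 and 0.19 ± 0.33, with adjusted p-values of 0.413, 0.783, 0.304 and 0.819. Over the whole unfed series, at ZT10, ZT13, ZT14, ZT18 and ZT22, Arntl averaged 1.15, 4.73, 14.4, 41.3 and 51 CPM, and Dbp 284, 87.6, 48.8, 12.4 and 6.57 CPM. The step from ZT14 to ZT18 thus lay on a course in 1 direction through the 5 times for both genes.

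**Figure D2:**
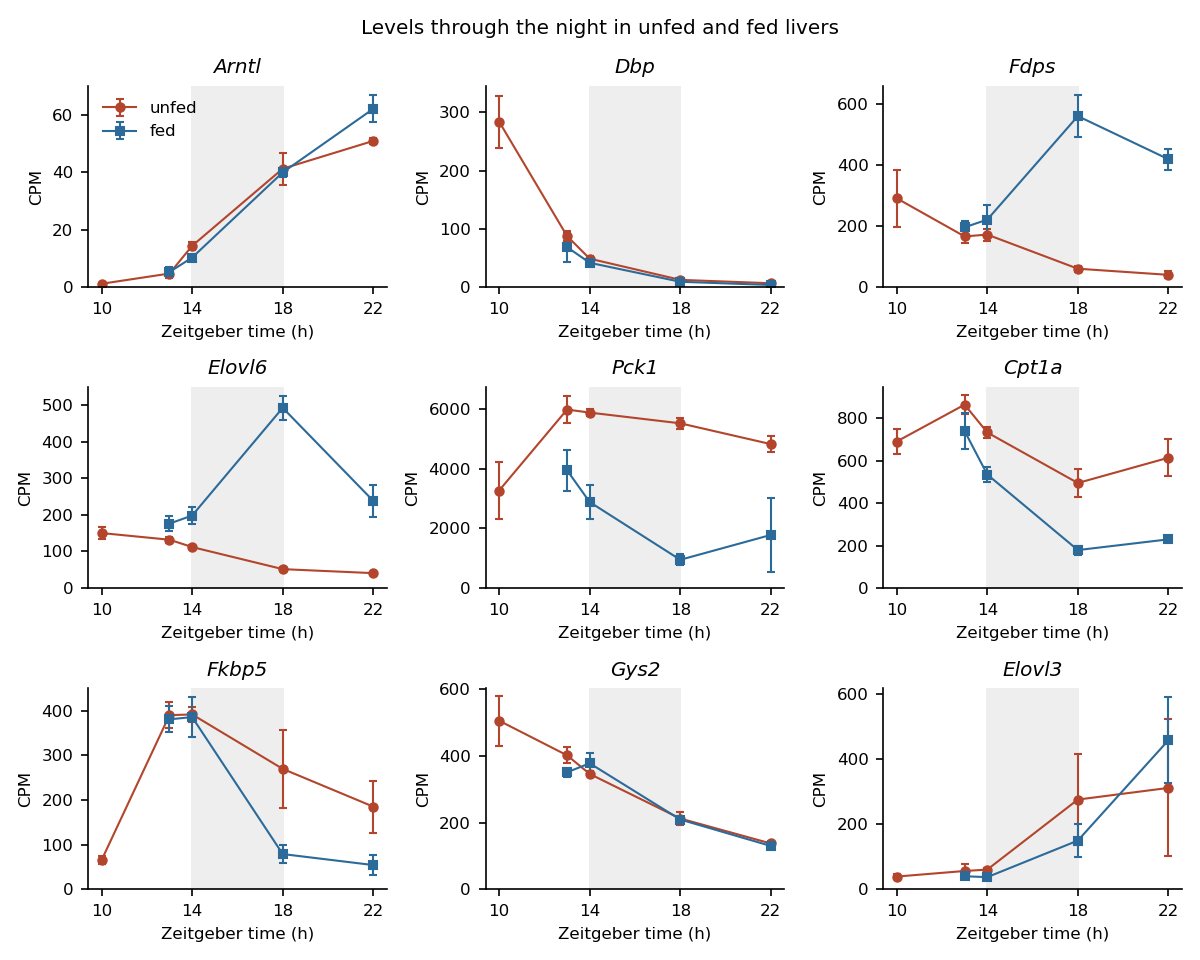
Mean level (CPM, points) with its SD over 3 livers (bars) of 9 genes against Zeitgeber time in unfed (circles) and fed (squares) livers, with the hours from ZT14 to ZT18 shaded. Unfed and fed courses lie close for Arntl, Dbp and Gys2, while Fdps and Elovl6 go down without food and up with it, and Pck1, Cpt1a and Fkbp5 go down more steeply with food.

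The genes with the largest rise that held without ZT18 replicate 3, at 5 CPM or more on average, came from varied families. Dtx4, which encodes an E3 ubiquitin ligase of the Deltex family, had 25.5, 19.6 and 19.7 CPM at ZT18, against 5.42, 7.17 and 5 CPM at ZT14, a log2 change of 1.89 ± 0.17 (adjusted p = 2.71e-07). Cldn1, the tight junction protein claudin-1, had 41.6, 78.2 and 55.6 CPM at ZT18 and 17.5, 18.1 and 15.2 CPM at ZT14, a log2 change of 1.79 ± 0.21 (adjusted p = 6.33e-06). Elovl3, an elongase of very long chain fatty acids, had 431, 241 and 156 CPM at ZT18 and 54.9, 60.7 and 64.7 CPM at ZT14, a log2 change of 2.20 ± 0.39 (adjusted p = 9.78e-04). The ZT18 values of Elovl3 were spread widely, yet each was above all ZT14 values. Pitx3, a homeobox gene whose interval overlaps that of Elovl3, followed the same order of libraries (56.3, 29.6 and 15.1 CPM at ZT18, and 3.29, 2.5 and 4.18 CPM at ZT14), and reads of the overlapping genes cannot be told apart.

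The remaining described genes with the largest rise were Tubb2a (1.71 ± 0.21), a beta-tubulin gene, Mpzl1 (1.69 ± 0.22), a cell surface glycoprotein gene, Mapk15 (1.64 ± 0.27), an atypical MAP kinase gene, Rtn4rl1 (1.60 ± 0.18), of the Nogo receptor family, Avpr1a (1.54 ± 0.18), which encodes the vasopressin receptor of hepatocytes, and Tmie (1.46 ± 0.21), known for its role in the hair cells of the inner ear. Rtn4rl1 was very even within groups, with 31.4, 31.2 and 32.2 CPM at ZT18 and 11.4, 8.93 and 10.8 CPM at ZT14. Avpr1a had 30, 46.4 and 37.7 CPM at ZT18 and 15.3, 12.9 and 11.3 CPM at ZT14. All of these were past the threshold in each of the 6 fits without 1 library. With food all of them rose as well: the fed log2 changes were 1.97 for Dtx4, 2.23 for Cldn1, 2.02 for Elovl3, 2.40 for Tubb2a, 1.78 for Mpzl1, 2.11 for Mapk15, 1.87 for Tmie, 3.81 for Pitx3 and 0.73 for Rtn4rl1, and Avpr1a had an adjusted p of 1.71e-06. For none of these did the difference between the unfed and the fed change pass the threshold (adjusted p of 0.0616 for Rtn4rl1 and over that for the others).

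Among the largest falls outside the clock and lipid lists, Gpcpd1, which encodes a glycerophosphocholine phosphodiesterase, had 182, 94.4 and 178 CPM at ZT18, against 521, 545 and 503 CPM at ZT14, a log2 change of -1.79 ± 0.22 (adjusted p = 1.20e-05). Lipg, endothelial lipase, had 25.3, 13.4 and 28.2 CPM at ZT18 and 67, 66 and 73.3 CPM at ZT14, a log2 change of -1.63 ± 0.24 (adjusted p = 1.13e-04). Gstm3, a glutathione transferase, had 17.2, 17.4 and 24.3 CPM at ZT18 and 47.8, 46.9 and 46.1 CPM at ZT14, a log2 change of -1.25 ± 0.24 (adjusted p = 0.00184). No ZT18 liver reached the lowest ZT14 liver for any of the 3. N6amt1, a methyltransferase gene, fell by 1.23 ± 0.21 on the log2 scale (adjusted p = 6.30e-04). Gstm3 belongs to a family of near-identical genes, among which reads can be split by the counting.

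Genes of cholesterol synthesis were lower in unfed livers at ZT18 than at ZT14. Of 24 listed genes, all tested, 12 fell and 0 rose, beside 2.94% and 4.00% of all genes tested, and the median log2 change was -0.55, beside 0.02 over all genes. Without ZT18 replicate 3, 9 fell and 0 rose, and across the 6 fits without 1 library 9 to 13 fell. Fdps, farnesyl diphosphate synthase, had 71.6, 55.7 and 53.3 CPM at ZT18, against 165, 195 and 157 CPM at ZT14, a log2 change of -1.52 ± 0.21 (adjusted p = 4.96e-05). Idi1, the isomerase one step before it, had 6.97, 6.52 and 4.61 CPM at ZT18 and 14.8, 18.1 and 18.5 CPM at ZT14, a log2 change of -1.51 ± 0.28 (adjusted p = 0.00169). Both genes separated the groups fully. Of the enzymes that finish the sterol ring, Nsdhl had 26.2, 20.6 and 24.2 CPM at ZT18 and 53.9, 55.5 and 50.5 CPM at ZT14 (log2 change -1.17 ± 0.18, adjusted p = 2.01e-04). Hsd17b7 changed by -0.78 ± 0.13 and Dhcr7, which makes cholesterol in the last step of one branch, by -0.72 ± 0.13 on the log2 scale (adjusted p = 7.44e-04 and 0.00102). These 5 genes were past the threshold in each fit without 1 library.

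The rest of the 12 included Mvk (-1.17), Msmo1 (-0.99), Cyp51 (-0.69), Pmvk (-0.63), Lss (-0.56) and Sc5d (-0.53), all of them enzymes of the mevalonate or sterol steps. Msmo1 and Lss lost their call without ZT18 replicate 3 (adjusted p = 0.0914 and 0.118), and Cyp51 was past the threshold in 4 of the 6 fits without 1 library. Hmgcs1, the synthase at the entry of the pathway, did not pass: it had 110, 141 and 142 CPM at ZT18 and 126, 118 and 132 CPM at ZT14, which overlap, with a log2 change of 0.06 ± 0.24 (adjusted p = 0.909). These genes were named after their values were seen, except Pmvk.

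With food, genes of this list went up over these hours. In fed livers 20 of the 24 rose and 0 fell, with a median log2 change of 1.16, beside 10.3% and 7.90% of all genes tested. The change differed between unfed and fed livers, being lower without food, for 20 of the 24, beside 1.36% of all genes, and for 18 to 20 across the fits without 1 library. For Fdps the fed change was 1.34 ± 0.20 and the difference, unfed minus fed, -2.86 ± 0.29 (adjusted p = 5.38e-07). For Pmvk, phosphomevalonate kinase, whose unfed levels were 17.4, 19.3 and 19.7 CPM at ZT18 and 30.4, 29.8 and 27.4 CPM at ZT14, the difference was -2.67 ± 0.21 (adjusted p = 1.15e-08). The summed level of the 24 genes averaged 5459, 3800.5, 3618, 2719.9 and 2410.1 CPM without food (ZT10, ZT13, ZT14, ZT18 and ZT22), against 3903, 3935, 7893 and 6141 CPM in fed livers at ZT13, ZT14, ZT18 and ZT22. The 3 unfed ZT18 livers had sums of 2551, 2730.2 and 2878 CPM, below the lowest unfed ZT14 liver at 3538 CPM. The letters of the sterol regulatory element were in the promoter window of 0 of the 16 genes of this list with one, and of 0.266% of all genes with one. That share is 31 of 11660 genes. With letters so rarely matched, 0 of 16 cannot tell whether these promoters hold sterol regulatory elements.

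**Figure D3:**
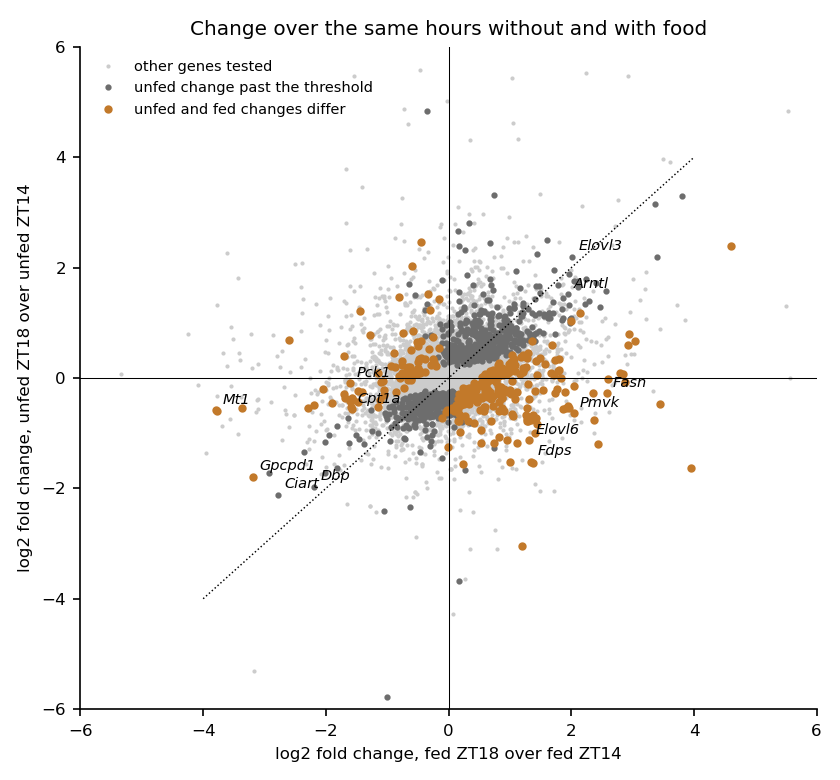
Log2 fold change of 14744 genes over unfed ZT14 livers (vertical axis, unfed ZT18) against the change over the same hours in fed livers (horizontal axis), with the dotted line marking equal change; orange points are the 284 genes whose changes differ, dark grey points other genes past the threshold in unfed livers, and 6 genes lie beyond the axes at 6. Clock genes lie near the dotted line, while Fdps, Pmvk and Elovl6 lie at the lower right.

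Fatty acid synthesis was lower in part. Of the 20 genes on the list of fatty acid and triglyceride synthesis, 7 fell and 2 rose, beside 2.94% and 4.00% of all genes tested, with a median log2 change of -0.32, beside 0.02 over all genes. Without ZT18 replicate 3 these were 6 and 1. Without ZT18 replicate 2, 3 fell and 0 rose, and without ZT14 replicate 2, 4 fell and 1 rose. The genes that rose were Mlxipl (0.52 ± 0.13, adjusted p = 0.0182) and Agpat2 (0.32 ± 0.10, adjusted p = 0.0408), both named after their values were seen. Mlxipl was past the threshold in 3 of the 6 fits without 1 library and Agpat2 in 0. Elovl6, the elongase from palmitate to stearate, had 55.3, 54.2 and 45.6 CPM at ZT18, against 118, 106 and 112 CPM at ZT14, a log2 change of -1.12 ± 0.12 (adjusted p = 3.46e-06). Acss2, which makes acetyl-CoA from acetate, had 95.6, 90.2 and 93.7 CPM at ZT18 and 216, 215 and 179 CPM at ZT14, a log2 change of -1.13 ± 0.14 (adjusted p = 1.40e-05). Its antisense gene Acss2os, whose reads cannot be told apart from it without strand, changed by -1.17 ± 0.14. Thrsp, a lipogenic gene that responds to thyroid hormone and carbohydrate, had 447, 181 and 126 CPM at ZT18 and 742, 772 and 712 CPM at ZT14, a log2 change of -1.56 ± 0.29 (adjusted p = 0.00158). The ZT18 values of Thrsp were spread and all below ZT14. Scd1, the stearoyl-CoA desaturase, changed by -1.03 ± 0.24 (adjusted p = 0.00991), which became 0.0738 without ZT18 replicate 2.

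The synthase itself did not pass. Fasn, fatty acid synthase, had 204, 234 and 209 CPM at ZT18 and 261, 277 and 244 CPM at ZT14, which do not overlap, with a log2 change of -0.27 ± 0.20 (adjusted p = 0.444). Acly, ATP citrate lyase, had 164, 196 and 139 CPM at ZT18 and 187, 184 and 184 CPM at ZT14, with a change of -0.15 ± 0.13 (adjusted p = 0.525). Srebf1, the gene of the transcription factor SREBP1, had a change of 0.11 ± 0.21 (adjusted p = 0.82), and Pnpla3, a lipid droplet protein gene, was at 0.599 to 1.62 CPM in all 6 libraries. In fed livers Fasn went up by 2.58 ± 0.21, Acly by 2.05 ± 0.13 and Elovl6 by 1.31 ± 0.12, all past the threshold. The difference, unfed minus fed, was -2.85 ± 0.28 for Fasn, -2.20 ± 0.18 for Acly, -2.43 ± 0.17 for Elovl6 and -2.08 ± 0.20 for Acss2. The change was lower without food for 10 of the 20 genes and higher for 0, beside 1.36% and 0.570% of all genes, and in the fits without 1 library it was lower for 9 or 10. Thrsp is set apart from these genes: its fed change was 0.24 ± 0.28, and its difference of -1.80 ± 0.40 (adjusted p = 0.0155) lost its call once fed ZT14 replicate 1 was left out.

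Genes of glycogen and glycolysis gave 6 falls and no rise among 22, beside 2.94% and 4.00% of all genes tested, with a median log2 change of -0.25. The count of falls was 5 without ZT18 replicate 3 and 3 without ZT14 replicate 3. Gys2, liver glycogen synthase, had 233, 191 and 212 CPM at ZT18, against 341, 354 and 342 CPM at ZT14, a log2 change of -0.70 ± 0.09 (adjusted p = 4.05e-05). Gbe1, the glycogen branching enzyme, had 111, 113 and 116 CPM at ZT18 and 152, 155 and 171 CPM at ZT14, a log2 change of -0.49 ± 0.09 (adjusted p = 0.00202). Both held in each fit without 1 library, and so did Pklr, liver pyruvate kinase, which had 176, 135 and 135 CPM at ZT18 and 259, 237 and 268 CPM at ZT14 (log2 change -0.77 ± 0.17, adjusted p = 0.00616). Ugp2, which makes UDP-glucose, changed by -0.53 ± 0.13 (adjusted p = 0.0158), a call lost without ZT18 replicate 1 or ZT14 replicate 3. Gys2 fell with food too, by 0.86 ± 0.09 on the log2 scale, and the difference was 0.15 ± 0.13 (adjusted p = 0.623). Pklr did not pass in fed livers, at 0.32 ± 0.17, and its difference was -1.10 ± 0.24 (adjusted p = 0.011).

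Genes known to be raised by fasting mostly did not pass between these times. Of 18 gluconeogenesis genes 2 fell and 0 rose, beside 2.94% and 4.00% of all genes, and 0 fell without ZT18 replicate 2. Pck1, the cytosolic PEP carboxykinase, had 5356, 5507 and 5719 CPM at ZT18 and 5794, 5846 and 6022 CPM at ZT14, a log2 change of -0.09 ± 0.28 (adjusted p = 0.893). G6pc, glucose-6-phosphatase, had 382, 564 and 694 CPM at ZT18 and 617, 654 and 569 CPM at ZT14, with overlap and a change of -0.17 ± 0.31 (adjusted p = 0.81). The listed genes that fell were Sds, serine dehydratase, at -1.17 ± 0.26 (adjusted p = 0.00819, and 0.0665 without ZT18 replicate 2), and Fbp1, fructose bisphosphatase, at -0.30 ± 0.08 (adjusted p = 0.0167, past the threshold in 2 of the 6 fits without 1 library). The intervals of Sds and Plbd2 overlap.

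Among 25 genes that oxidise fatty acids or make ketone bodies, 1 rose and 1 fell, again beside 4.00% and 2.94% of all genes, with a median log2 change of 0.03. The one that fell was Cpt1a, the gate of fatty acid entry into mitochondria, with 509.9, 422 and 552 CPM at ZT18 and 756, 739.5 and 703 CPM at ZT14, a log2 change of -0.57 ± 0.11 (adjusted p = 0.00324) that held in each fit without 1 library. The one that rose was Acot1, an acyl-CoA thioesterase, at 0.77 ± 0.23 (adjusted p = 0.047), with 94.2, 84.7 and 187 CPM at ZT18 and 72.2, 72 and 70.8 CPM at ZT14, and its adjusted p was 0.425 without ZT18 replicate 3; it was also lost without each ZT14 library. The high ZT18 value is that of replicate 3. Slc22a5, the carnitine carrier, had the opposite dependence: its change of -0.49 ± 0.19 (adjusted p = 0.118) was -0.88 (adjusted p = 0.00177) without that library. Fgf21, Angptl4, Pdk4, Ppargc1a and Igfbp1, all textbook fasting genes, did not pass, with log2 changes of 0.08, -0.07, 0.87, -0.14 and 0.16 (adjusted p from 0.158 to 0.949). In Fgf21, Angptl4, Pdk4 and Igfbp1 the highest ZT18 value was again replicate 3, and their log2 changes without it were -1.03, -0.33, 0.21 and -0.31, none past the threshold. For all 4 the part of the pancreas transcripts in that library in its values was not tested.

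**Figure D4:**
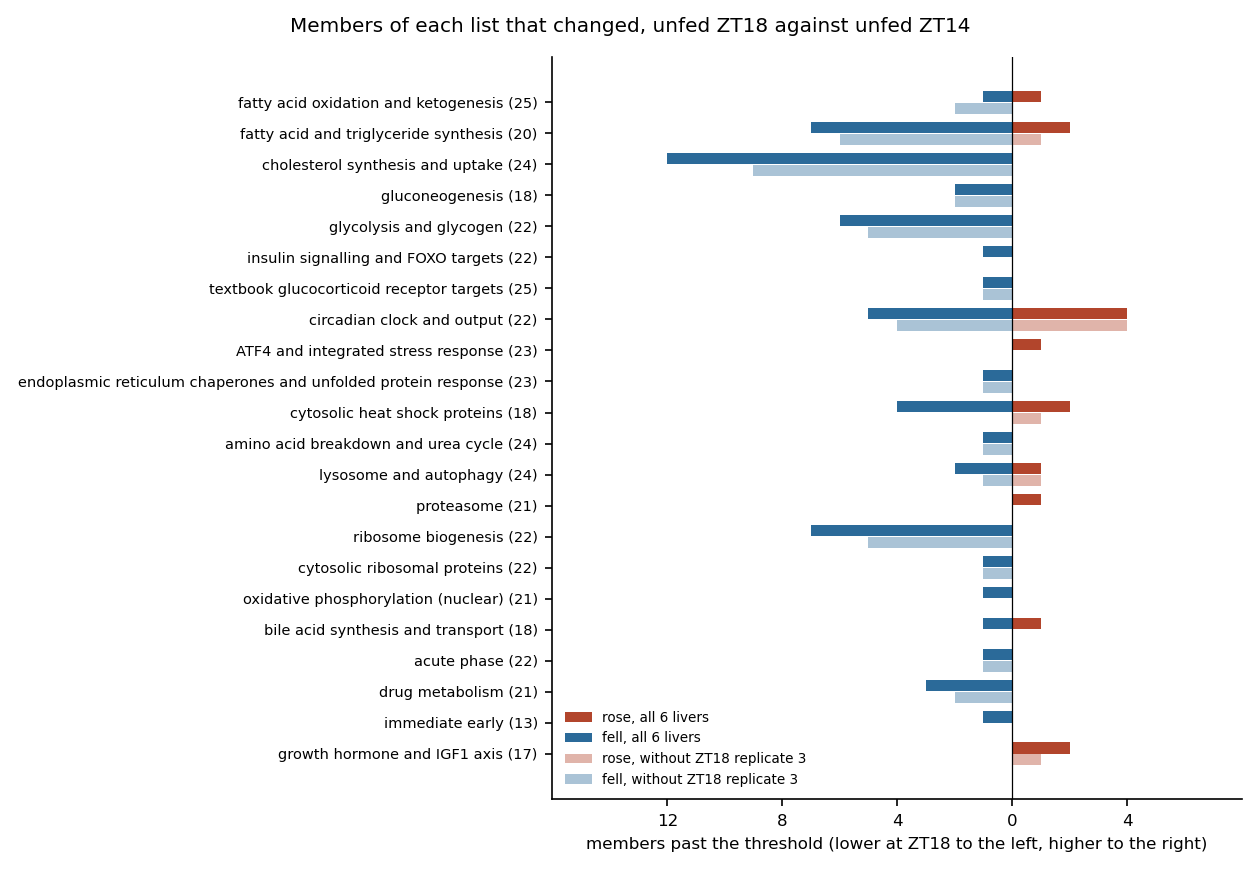
Number of members past the threshold on each of 22 gene lists (number tested in brackets), those lower at ZT18 to the left and those higher to the right, with all 6 livers (dark bars) and without ZT18 replicate 3 (pale bars). Cholesterol synthesis has the longest bar, with 12 lower and 9 without that library.

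Of 22 genes of ribosome biogenesis 7 fell, 0 rose and 15 did not pass, beside 2.94% of all genes lower and 4.00% higher, with a median log2 change of -0.36. The count was 5 without ZT18 replicate 1 or 3, 1 without ZT18 replicate 2 or ZT14 replicate 3, and 3 and 4 without ZT14 replicates 1 and 2. Polr1a, the largest subunit of RNA polymerase I, had 25.6, 23.4 and 28.9 CPM at ZT18, against 40.2, 37.9 and 33.9 CPM at ZT14, a log2 change of -0.52 ± 0.12 (adjusted p = 0.0119). Gnl3, nucleostemin, had 21.1, 18.5 and 22.1 CPM at ZT18 and 31.3, 31.9 and 33.5 CPM at ZT14, a log2 change of -0.65 ± 0.16 (adjusted p = 0.0136). Nop56 and Dkc1, of the box C/D and box H/ACA particles that modify ribosomal RNA, changed by -0.71 ± 0.19 and -0.61 ± 0.15 (adjusted p = 0.0214 and 0.0128). Nop56 had an adjusted p of 0.087 without ZT18 replicate 3, and none of these 4 was past the threshold in every fit without 1 library. The summed level of the 22 genes was 612 to 679 CPM at ZT18 and 812 to 822 CPM at ZT14, with no overlap. In fed livers 8 fell and 0 rose, beside 7.90% and 10.3% of all genes, and for none of the 22 did the difference between unfed and fed pass the threshold. Over 22 cytosolic ribosomal protein genes the median log2 change was -0.21.

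Other lists gave few calls. Among 18 cytosolic heat shock proteins 4 fell and 2 rose, beside 2.94% and 4.00% of all genes, which became 0 and 1 without ZT18 replicate 3, and without the other libraries in turn 0 to 2 fell and 0 to 2 rose. Hspa1b, an inducible HSP70 with a near-identical copy in Hspa1a, had 9.84, 9.01 and 12.9 CPM at ZT18 and 27, 26 and 28 CPM at ZT14 (log2 change -1.34 ± 0.40, adjusted p = 0.0415), and passed in none of the 6 fits without 1 library. Dnajb9, a co-chaperone of the endoplasmic reticulum, changed by -0.88 ± 0.20 (adjusted p = 0.00764), as the 1 call among 23 genes of the unfolded protein response, lost without ZT14 replicate 3. Sqstm1, the autophagy receptor p62, had 479, 484 and 519 CPM at ZT18 and 372, 343 and 352 CPM at ZT14, a log2 change of 0.47 ± 0.09 (adjusted p = 0.00174) that held in each fit, while Wipi1 and Atp6v1a of the same list fell by 0.40 and 0.26, both lost without ZT18 replicate 3. Atf5 was the 1 call among 23 genes of the integrated stress response, at 0.69 ± 0.15 (adjusted p = 0.00713), which became 0.055 without ZT18 replicate 3, and the call was lost without ZT14 replicate 3 too. Its interval overlaps those of Il4i1b and Nup62.

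Of 21 drug metabolism genes 3 fell and 0 rose, beside 2.94% and 4.00% of all genes tested. Those that fell were Gstm3, its relative Gstm1 (-0.50 ± 0.13, past the threshold in 1 of the 6 fits without 1 library), and Alas1, the first enzyme of heme synthesis. Alas1 had 599, 400 and 491 CPM at ZT18 and 1018, 974 and 996 CPM at ZT14 (adjusted p = 0.0164, and 0.0528 without ZT18 replicate 3), and was past the threshold in 3 of those fits. On the remaining lists calls were few, beside those same shares of all genes. Pik3r1, the regulatory subunit of PI3 kinase, fell by 0.41, Slc10a1, the bile acid uptake carrier, by 0.46, and Il1r1, the interleukin-1 receptor, by 0.73. Zfp36, an RNA-binding protein gene of the immediate early list, fell by 0.56, and Ndufs1, of respiratory complex I, by 0.25. Klb, the FGF21 co-receptor, rose by 0.40, Psmd11 of the proteasome by 0.27 and Stat5b of growth hormone signalling by 0.44, besides Elovl3 on the same list. None of these 8 held in every fit without 1 library, and without ZT18 replicate 3 only Il1r1 was past the threshold (adjusted p = 0.0214). Slc10a1, Zfp36, Ndufs1 and Klb were past the threshold in 0 of those 6 fits. Psmd11 and Stat5b passed in 1, Pik3r1 in 2 and Il1r1 in 3. Of 24 amino acid breakdown and urea cycle genes the only call was the fall of Sds, given above, beside 2.94% of all genes lower.

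The change from ZT14 to ZT18 differed between unfed and fed livers for 284 of 14744 genes (1.93%), higher without food for 84 (0.570%) and lower for 200 (1.36%). Leaving out 1 of the 12 libraries gave 161 to 518 genes, with 181 without unfed ZT18 replicate 3, 178 and 188 without unfed ZT14 replicates 1 and 2, 161, 184 and 518 without fed ZT18 replicates 1, 2 and 3, and 110 without both unfed ZT18 replicate 3 and fed ZT14 replicate 1. The fed library stood apart by several marker lists, with summed levels of 109 CPM for bile duct, 52.8 CPM for muscle, 143 CPM for red blood cell and 40.8 CPM for acinar markers, against at most 26.7, 10.9, 69.7 and 16.8 CPM in the other fed ZT14 livers. On the second principal component of the 12 libraries (18% of variance) it was at -60.03 and these were at -22.27 and -15.73. Without it alone 196 genes differed, and the part of these transcripts in the fed values was not tested. The unfed and fed changes share no library. Of the 590 genes that rose without food, 354 (60%) also rose with food, which is 23.4% of the 1515 that rose there, and 2 fell. Of the 433 that fell without food, 155 (35.8%) also fell with food, 13.3% of the 1165 that fell there, and 29 (6.7%) rose. Among the 331 and 238 genes called without unfed ZT18 replicate 3, 233 (70.4%) of those that rose also rose with food and 112 (47.1%) of those that fell also fell. Over all genes tested, 10.3% rose and 7.90% fell with food.

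Of the 84 genes that were higher without food in this comparison, 67 fell with food. Mt1, a metallothionein, had 229, 64.9 and 191 CPM in unfed livers at ZT18 and 271, 252 and 205 CPM at ZT14, with a log2 change of -0.59 ± 0.40 (adjusted p = 0.412). In fed livers its mean was 8.35 CPM at ZT18 and 115 CPM at ZT14, and the difference was 3.20 ± 0.60 (adjusted p = 0.00314). Prox1, a homeobox gene of hepatocytes, had 285, 275 and 267 CPM at ZT18 and 289.7, 288 and 285 CPM at ZT14 without food, and averaged 137 and 289 CPM in fed livers at these times, a difference of 1.01 ± 0.18 (adjusted p = 0.00196). Its 6 unfed values lay close together. Bcor, a corepressor gene, differed by 1.07 ± 0.19 (adjusted p = 0.00199) and Cpt1a by 1.02 ± 0.16 (adjusted p = 4.60e-04). Slc40a1, the iron exporter ferroportin, rose without food, with 203, 203 and 236 CPM at ZT18 and 153, 157 and 136 CPM at ZT14 (0.52 ± 0.11, adjusted p = 0.00691), and was at -0.31 ± 0.11 with food (adjusted p = 0.0601), a difference of 0.83 ± 0.16 (adjusted p = 0.00477). Gpcpd1 fell in both, by 1.79 without food and 3.18 with it on the log2 scale, and these differed by 1.39 ± 0.30 (adjusted p = 0.012).

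The textbook targets of the glucocorticoid receptor, a hormone-activated transcription factor encoded by Nr3c1, gave 1 fall and 0 rises among 25 genes without food (median log2 change -0.24), beside 2.94% and 4.00% of all genes. With food there were 13 falls and 1 rise (median -0.84), beside 7.90% and 10.3% of all genes. The unfed count is thus near the share over all genes. The change was higher without food for 4 of the 25 and lower for 0, beside 0.570% and 1.36% of all genes. It was higher for 3 without unfed ZT18 replicate 3 and for 2 without unfed or fed ZT18 replicate 1. Nr3c1 itself had 104, 116 and 98.9 CPM at ZT18 and 104, 107 and 111 CPM at ZT14 (-0.01 ± 0.09, adjusted p = 0.952). Fkbp5, a co-chaperone that glucocorticoids raise, had 347, 175 and 287 CPM at ZT18 and 388, 409 and 378 CPM at ZT14 without food (-0.54 ± 0.25, adjusted p = 0.21). With food it fell by 2.29 ± 0.27, a difference of 1.76 ± 0.36 (adjusted p = 0.00757). Lpin1, a phosphatidate phosphatase, had 576, 287 and 403 CPM at ZT18 and 919.7, 957 and 937 CPM at ZT14, a fully separated change of -1.15 ± 0.45 that did not pass (adjusted p = 0.126). For Pck1 the difference of 1.51 ± 0.40 had an adjusted p of 0.0465 and passed without fed ZT18 replicate 3 or fed ZT14 replicate 1 only.

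Loss of the receptor in hepatocytes was read from the mean over 6 times of CRE against GFP livers of Nr3c1fl/fl mice, where 14.6% of 15712 genes changed, 7.92% higher and 6.64% lower in CRE livers, and Nr3c1 changed by -0.63 (adjusted p = 1.85e-09). The following shares are descriptions with no test. Of the 590 genes that rose at ZT18 without food, 116 (19.7%) were higher and 24 (4.07%) lower in CRE livers, beside 8.42% and 7.05% of the tested genes also measured there. Of the 433 that fell, 37 (8.55%) were higher and 60 (13.9%) lower. For the genes called without unfed ZT18 replicate 3 these shares were 22.7% higher and 4.83% lower among those that rose, and 11.3% and 17.6% among those that fell. Of the 84 genes higher without food in the unfed and fed comparison, 28 (33.3%) were lower and 2 (2.38%) higher in CRE livers. Single genes in that set include Mt1 (-2.37 in CRE over GFP livers), Fkbp5 (-1.77) and Pck1 (-0.79), while Cpt1a was at 0.06 (adjusted p = 0.643). A receptor peak of ZT10 chromatin, from the 5772 that the authors deposited as concordant between replicates, lay within 25 kb of the gene for 39.2% of the genes that rose and 39.3% of those that fell, beside 29.4% of all genes tested, and for 54.8% of those 84. Without unfed ZT18 replicate 3 it was 38.1% of the genes that rose and 45.4% of those that fell.

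Summed levels of Kupffer, endothelial and bile duct markers did not overlap between the times. The 11 Kupffer cell markers, genes of the resident macrophages, summed to 203 to 273 CPM at ZT18 and 159.8 to 176 CPM at ZT14, with no overlap and no marker at 0. All 11 had a positive change, with a median of 0.60, while 7868 of all 14744 genes were positive, with a median of 0.02. Of the 11, 2 rose, beside 4.00% of all genes: Vsig4 (0.70 ± 0.20, adjusted p = 0.031) and Adgre1 (0.88 ± 0.27, adjusted p = 0.0459), which encodes F4/80. Without ZT18 replicate 3 there were 4, with Timd4 and Csf1r added (adjusted p = 0.0484 and 0.0359), and without the other libraries 0 or 1. The sum was 225 ± 47.5 CPM in unfed livers at ZT10 and 230.0 ± 38 CPM at ZT13 (SD, n = 3 each), both above the ZT14 livers on average. Endothelial markers summed to 376 to 406 CPM at ZT18 and 347 to 365 CPM at ZT14. Their sums at unfed ZT10 (350.4 to 434 CPM) and unfed ZT13 (329 to 424 CPM) overlapped both groups. The median log2 change was 0.09, and 1 of 10 rose, beside 4.00% of all genes: Cdh5, VE-cadherin (0.54 ± 0.13, adjusted p = 0.00991). Bile duct markers summed to 18.9 to 21.1 CPM at ZT18 and 23.5 to 29.4 CPM at ZT14, with no call among the 6 tested. The part of these cells in the changes above was not tested.

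**Figure D5:**
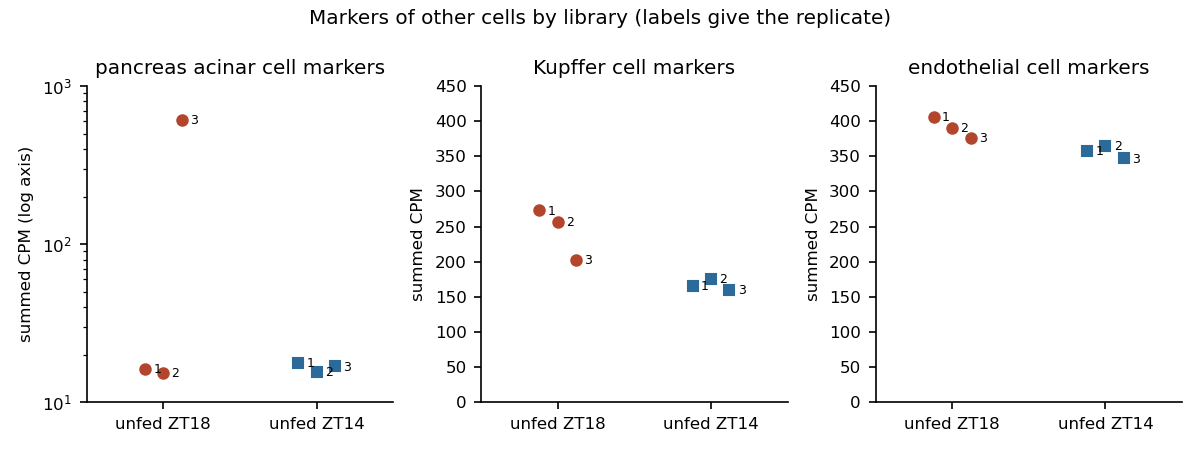
Summed CPM of pancreas acinar (log axis), Kupffer and endothelial cell markers in each unfed liver at ZT18 (circles, left) and ZT14 (squares, right), with the replicate number beside each point. ZT18 replicate 3 is at 613 CPM for acinar markers while the other libraries are at 15.4 to 17.8 CPM, and Kupffer and endothelial sums do not overlap between the times.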

How the data were processed

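The authors deposited raw counts per RefSeq transcript, 1 column per library. STAR, HOMER, DESeq2 and build mm10 are named without roles or versions per the submitters' processing notes. Per the labels, about 5 mg of liver entered each extraction and 1000 ng of RNA each library, from polyA RNA for C57BL/6 livers and total RNA for Nr3c1fl/fl livers. Transcripts were matched by accession to the GRCm38.p6 gene table (40219 of 40458 rows, 24790 genes), and the row with the highest total stood for a gene. Unmatched rows held 0.33% to 1.291% of the counts of the 6 libraries and stayed out. In the 36 Nr3c1fl/fl libraries they held 2.432% to 28.643% of the counts. The part of this uneven share in the CRE over GFP changes was not tested. Of counts from 1 to 10, 76.7% to 82.0% were even, so reads may be counted in pairs, and halved counts were an alternative. The authors' peak list gives positions only, with no score.

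The test was edgeR 4.0.16 under R 4.3.3 (TMM, filterByExpr, quasi-likelihood F-test), 1 fit over 27 libraries in 9 groups of 3, checked on simulated counts. SE is the absolute log2 fold change divided by the root of F. DESeq2 1.42.0, other size factors, no filter, other row choices, a replicate block and each library left out were alternatives. Depth limits genes of a few counts.

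Named are 28 fixed genes, up to 4 per list with the smallest p, up to 12 with the largest change each way that held without ZT18 replicate 3 at 5 CPM or more without overlap, up to 6 each way for the difference, and markers whose call changed. Others are marked as named after seeing values. Members, lists and rules were chosen with earlier results of these data known. Hepatocyte, bile duct, stellate, lymphoid, neutrophil, red blood cell, fat and muscle marker lists gave no call with all 6 livers. Only 1 of the 8 neutrophil markers was tested. Of the 8 pancreas endocrine markers 0 passed the filter on low counts, so that list could give no call. Their summed level was 12.6 CPM in ZT18 replicate 3, with none at 0. It was at most 0.0871 CPM in the other ZT18 livers and 0 in the ZT14 livers. Results of some genes are not reported here.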

Additional observations from a re-analysis of the deposited data

Results flagged for a closer look

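The change from ZT14 to ZT18 differed between unfed and fed livers, by edgeR's test of the difference itself, for 284 genes, and the following named genes are among them, with log2 differences, unfed minus fed. Of cholesterol synthesis these were Fdps (-2.86), Idi1 (-2.52), Pmvk (-2.67), Dhcr7 (-2.15), Nsdhl (-1.71) and Hsd17b7 (-1.47). Of lipid synthesis they were Fasn (-2.85), Acly (-2.20), Elovl6 (-2.43), Acss2 (-2.08), Acss2os (-2.29), Thrsp (-1.80) and Pnpla3 (-3.92), the last from under 2 CPM in each unfed library. Also lower without food were Pklr (-1.10), of glycolysis, Gstm3 (-1.24) and Hsp90b1 (-0.90), a chaperone of the endoplasmic reticulum. Higher without food were Mt1 (3.20), Mt2 (3.18), Fkbp5 (1.76), Pck1 (1.51), Cpt1a (1.02), Gpcpd1 (1.39), Prox1 (1.01), Bcor (1.07), Slc40a1 (0.83), Fosl2 (0.83), of the AP-1 family, and Socs2 (2.66), an inhibitor of growth hormone signalling. The calls of Pck1, Gstm3, Socs2 and Fosl2 were lost in most of the 12 fits without 1 library, and those of Mt2 and Thrsp in some. Groups of 3 livers were too small for a test of single outlying libraries.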

How the results depend on the processing

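The count of genes that changed between unfed ZT18 and unfed ZT14 livers was 1023, with 404 to 845 when 1 library was left out and 604 without both unfed ZT18 replicate 3 and fed ZT14 replicate 1. It was 1327 with DESeq2, 1002 with its size factors, 898 with no filter, 1396 with these groups alone, 991 with the mean of a gene's rows and 1009 with halved counts. The count for the difference between unfed and fed was 284, with 161 to 518 when 1 library was left out, 110 without those 2 libraries and 486 with DESeq2. The cause was not tested, beyond the fewer samples in fits without a library. Replicate numbers did not pair the libraries: deviations of same-numbered unfed livers correlated at -0.01, 0 and -0.03, and with a replicate block the counts were 1020 and 310, and 2297 in place of 2289 for CRE against GFP livers. No named gene turned its direction past the threshold in any of these settings. Results of single named genes and of lists did depend on the fit. With these groups alone, the unfed result was graded stronger for 22 named genes, weaker for 4 and the same for 104. With DESeq2 it was stronger for 13, weaker for 1 and the same for 116. Counts on lists were graded as moved in 19 cases and the same in 14 with these groups alone, and in 8 and 25 with DESeq2. Calls of genes with a few counts, and of small changes, are limited by depth and by 3 libraries per group.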
